A study of Mus musculus with 32 samples.

Results

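A set of 10 heat shock and endoplasmic reticulum (ER) chaperone genes was followed through mouse gliomas treated with BLZ945, an inhibitor of the colony-stimulating factor 1 receptor on which macrophages depend. The genes were chosen by symbol: Hspa1a, Hspa1b, Hspa8, Hsp90aa1, Dnajb1, Hsph1, Hspa5, Hsp90b1, Xbp1 and Ddit3, 10 of the 23337 genes counted, and each had a row. The choice was made with earlier results of these data known. XFM mice received DF-1:PDGFB cells in the brain when 5 to 6 weeks old, entered the trial at a tumour volume of 20 to 40 mm3 and were dosed every day with Vehicle or BLZ945, up to symptoms or 26 weeks of age. Tumours were dissociated with papain, and 2 populations were sorted: tumour-associated macrophages (TAM; Cd11b+, Gr.1-) and cells labelled tumour cells (TC; PDGFRA+). Each gave 5 libraries from Vehicle tumours, 6 from BLZ945 tumours labelled dormant (Endpoint) and 5 from BLZ945 tumours labelled Rebound. These 32 libraries came from 17 mice, of which 15 gave both sorts. Even Vehicle libraries carry BLZ945 as their agent in the labels, so the stage label was used for treatment. What XFM stands for is not given in the labels, and the model is limited to tumours started by transferred DF-1:PDGFB cells.

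Chaperones bind unfolded protein and help it fold. In the cytosol the heat shock factor Hsf1 induces the Hsp70 genes Hspa1a and Hspa1b from near silence when proteins misfold, while Hspa8 is the Hsp70 that cells make all the time, Dnajb1 is an Hsp40 co-chaperone that loads clients onto Hsp70, Hsph1 is an Hsp110 that exchanges its nucleotide, and Hsp90aa1 is the stress-inducible cytosolic Hsp90. In the ER the corresponding Hsp70 and Hsp90 are Hspa5 (BiP) and Hsp90b1 (Grp94). Unfolded protein in the ER releases BiP from 3 sensors and starts the unfolded protein response, in which Xbp1 is the transcription factor activated by splicing through IRE1, and Ddit3 (CHOP) is a factor downstream of PERK and Atf4. Gene counts do not separate spliced from unspliced Xbp1.

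The promoters of 3 members are shown because they hold, before the start, letters matching the elements through which these responses are known to act. Each is the 250 bases before the RefSeq transcription start (GRCm38.p6), written 5′ to 3′ in the direction of the gene. Capitals mark 2 facing heat shock units (GAANNTTC) in Hspa1a, on the minus strand of the chromosome, and the ER stress response element in Hspa5 (plus strand) and Hsp90b1 (minus strand), the CCAAT box and CCACG separated by 9 bases.
Hspa1a, chr17:34972157-34972406: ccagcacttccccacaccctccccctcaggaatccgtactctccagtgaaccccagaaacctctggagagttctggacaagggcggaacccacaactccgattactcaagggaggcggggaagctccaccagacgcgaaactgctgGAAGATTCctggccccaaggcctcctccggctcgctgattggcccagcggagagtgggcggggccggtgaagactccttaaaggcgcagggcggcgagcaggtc
Hspa5, chr2:34771840-34772089: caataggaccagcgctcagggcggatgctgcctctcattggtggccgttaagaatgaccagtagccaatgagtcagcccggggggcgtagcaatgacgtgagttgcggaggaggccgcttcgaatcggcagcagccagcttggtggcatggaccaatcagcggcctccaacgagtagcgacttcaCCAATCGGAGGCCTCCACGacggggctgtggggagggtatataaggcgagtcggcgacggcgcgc
Hsp90b1, chr10:86705445-86705694: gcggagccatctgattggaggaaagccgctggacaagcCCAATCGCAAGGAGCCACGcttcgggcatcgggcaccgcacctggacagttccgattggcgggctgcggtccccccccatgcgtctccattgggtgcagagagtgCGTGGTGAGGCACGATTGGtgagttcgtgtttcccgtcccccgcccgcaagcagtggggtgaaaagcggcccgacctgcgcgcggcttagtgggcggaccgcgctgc
The element began 65 bases before the start in Hspa5. Hsp90b1 held it at 212 bases and, on the opposite strand, at 107 bases before the start. Searched on both strands of windows running from 250 bases before to 50 bases after each start, it was present in 0.119% of 32851 windows, belonging to 37 of 27025 genes. The facing heat shock pair was far commoner, at 7.86% of windows. Hspa1a and Hspa1b carried it at the same place, 104 bases before the start, and their windows differed at 4 of 300 bases. Hsph1 held 3 heat shock units in a row (GAANNTTCNNGAA, 0.603% of windows), after its start. It also held a tail-to-tail pair (TTCNNGAA, 8.52% of windows) before the start, at 33 bases in 1 window and 54 bases in another. Dnajb1, Xbp1 and Ddit3 held none of these elements in the window. RefSeq windows were matched for 8 members, and those of Hspa8 and Hsp90aa1 were not. A match is a string of letters and says nothing on binding in these cells.

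Counts for several members can be shared with near-identical genes. Of all 50-base stretches of the longest transcript, 66.3% in Hspa1a, 62.3% in Hspa1b, 74.8% in Hspa8 and 58.5% in Hsp90aa1 also occurred in another annotated gene (GENCODE M21, GRCm38). For Hspa1a the main partner was Hspa1b, and for Hspa8 it was Gm15459, at 70.0%. Hspa5, Xbp1 and Hsph1 had none. Libraries were not stranded, per the kit named in the labels, and Hspa1a and Hsp90b1 overlap antisense genes, so their reads cannot be told apart from those of Gm20481 and 1810014B01Rik.

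The libraries held 4180176 to 30383148 counts. In the 22 BLZ945 libraries every count was even, and in the 10 Vehicle libraries it was not, so treatment and this difference in counting cannot be told apart. Endpoint and Rebound libraries are alike in this. Vehicle mice 57098 and 57682 stood apart from the other 3 in both sorts: the ribosomal precursor Rn45s took 1.71 and 0.391% of their TAM counts and 6.83 to 7.66% in the others. The libraries labelled TC Endpoint went against their label: 12 tumour and oligodendrocyte progenitor markers summed to 293 to 2365 CPM (counts scaled to a common library size), against 2259.8 to 7749 in TC Vehicle, and 12 ependymal and choroid plexus markers to 7646 to 246887, against 84.2 to 802. The 10 T and NK cell markers summed to 3714 to 5256 CPM in 4 of the 6 (mice 49823, 49825, 49830 and 49831) and to 3012 in TC Rebound mouse 49827, but to 5.24 to 35.9 in the other 11 TC libraries. In TC Rebound 8 pericyte and fibroblast markers summed to 90.4 to 6747 CPM. They summed to 208 to 811 at TC Endpoint and 11.1 to 133 in TC Vehicle, and their part in the TC results was not tested. In TAM libraries the 11 myeloid markers summed to 35692 CPM or more, with none at 0 in any group, and T and NK markers were highest in Rebound mice 49041, 49059 and 49849, at 59.8 to 192. Myelinating oligodendrocyte markers were also higher in TC Endpoint, 18492 to 26303 CPM against 2667 to 15231 in TC Vehicle, and myeloid markers stood at 1464 to 9533 against 194 to 1937. Since all 6 TC Endpoint libraries lay above all 5 of TC Vehicle in the ependymal and the oligodendrocyte sums, no TC Endpoint value can be given without such libraries, and the part of these markers in the TC Endpoint results was not tested. Values without the libraries high in T and NK markers, and without mice 57098 and 57682, stand beside the results of the members that change with them. Without the 3 TAM Rebound libraries, only mice 49827 and 49834 are left in that group. Without the 5 TC libraries, only mice 49843 and 49845 are left at TC Endpoint. Mouse 49843 gave the fewest TC counts, 4180176, with 16.9% Rn45s. In such fits, having fewer libraries and the part of T and NK cells cannot be told apart.

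The stages were compared within each sort with edgeR's quasi-likelihood test, with p-values adjusted over all genes tested and called under 0.05. Hspa1b was too low to be tested in TAM, so 9 members were tested there and 10 in TC. In TAM, Endpoint against Vehicle gave 1 member higher, where 13.7% of all genes tested were called higher, and 3 lower, where 19.3% were. Rebound against Vehicle gave 1 lower (7.73% of all genes) and none higher (7.00%). Rebound against Endpoint gave 2 higher (11.7%) and none lower (5.90%). In TC, no member was called between Endpoint and Vehicle, where 14.0% of genes were called higher and 14.8% lower, although 5 had an unadjusted p under 0.05, DESeq2 called 3, limma voom 4, and limma voom with the mouse as a replicate block 5. None was called between Rebound and Vehicle either (0.0400 and 0.0334% of genes), with 3 members at an unadjusted p under 0.05 and 0 called by DESeq2 or limma voom. Rebound against Endpoint gave 1 lower (11.5%) and none higher (13.6%). Without Vehicle mice 57098 and 57682, TAM Endpoint against Vehicle gave 7 calls, 6 of them lower, and TAM Rebound against Vehicle gave 3.

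The median log2 difference over the members tested was -0.58 in TAM Endpoint against Vehicle, where it was -0.03 over all genes, and the same with Hspa1a set at its bound given below. It was -0.05 in TC Endpoint against Vehicle, with 0.03 over all genes.

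**Figure D1:**
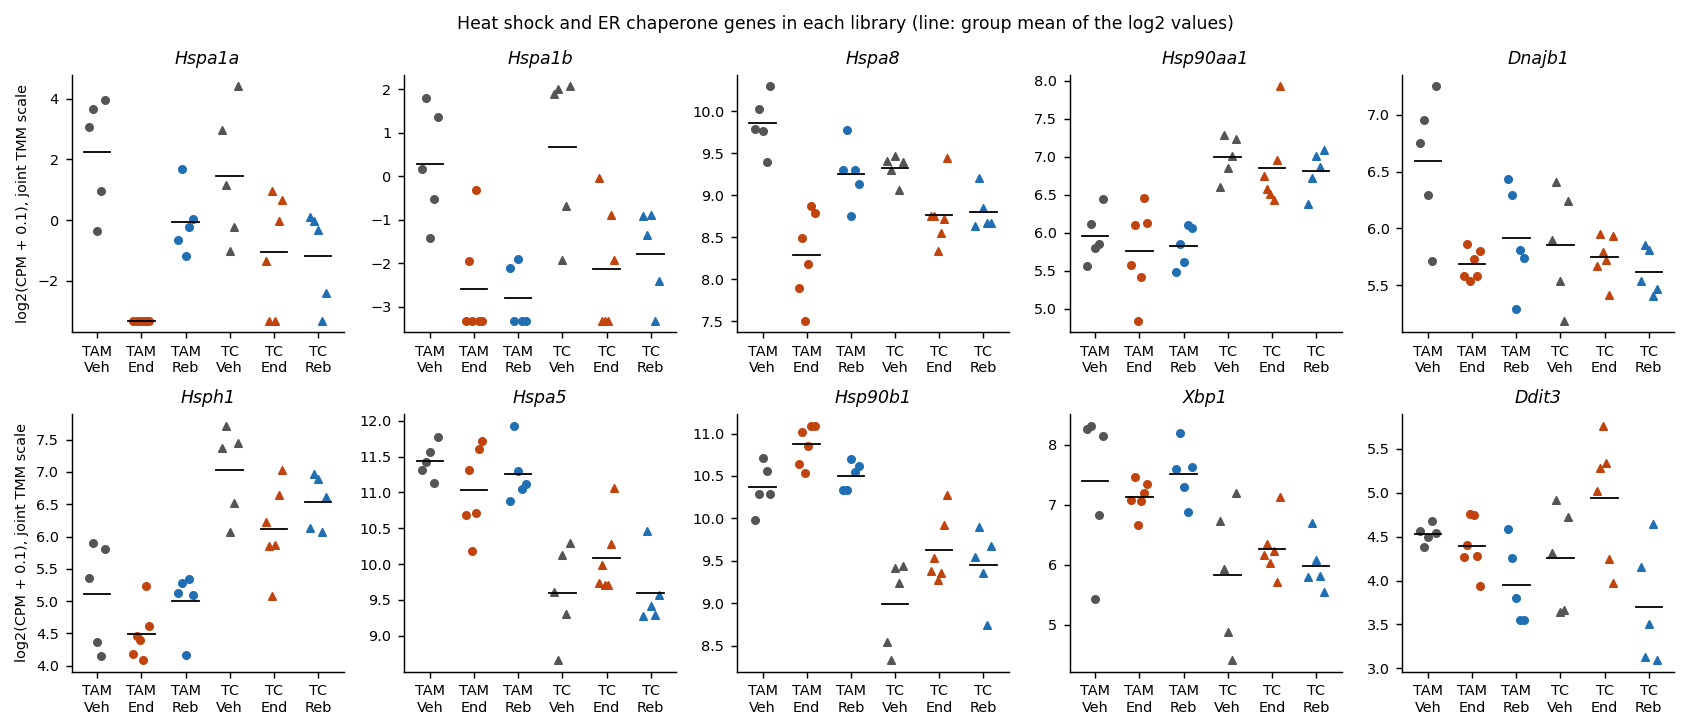
Level of each gene in each of the 32 libraries, as log2(CPM + 0.1) on the scale shared by both sorts; circles are TAM libraries, triangles TC libraries, and lines group means of the log2 values. Hspa1a was at 0 in all 6 TAM Endpoint libraries, and at each stage the group means of Hsph1 and Hsp90aa1 were higher in TC, while those of Hspa5 and Hsp90b1 were higher in TAM.

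The inducible Hsp70 genes had their highest mean in Vehicle tumours, and in TAM Hspa1a was not detected at Endpoint. In TAM, Hspa1a (chr17:34969190-34972156, minus strand) stood at 6.80, 10.1, 0.545, 1.47 and 12.6 CPM in Vehicle mice 54359, 54363, 57098, 57682 and 64247, with CPM scaled within the sort. No read was counted in any of the 6 Endpoint libraries. In Rebound mice 49041, 49059, 49827, 49834 and 49849 it stood at 0.441, 2.59, 0.267, 0.619 and 0.757 CPM. Below, values are given in these orders of mice. All 5 Rebound libraries were above all 6 Endpoint libraries, and Vehicle spanned from the Rebound range to far above it. Since Endpoint counts are even, the floor was set at 6 counts over the group, or 0.0678 CPM, and Hspa1a was at least 93.0-fold lower at Endpoint than in Vehicle (adjusted p = 0.000112) and at least 13.8-fold lower than in Rebound (adjusted p = 0.00324). Both bounds take the mean of the other group as it stands. The first is 69.8-fold without Vehicle mouse 64247. The second bound rests on Rebound mouse 49059 and is 7.69-fold without it. In bulk libraries, fewer cells of a type and less RNA per cell cannot be told apart.

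Hspa1a in TAM was also lower in Rebound than in Vehicle (log2 difference -2.72 ± 0.85 (SE), adjusted p = 0.0459). This call ended without Vehicle mouse 54359, 54363 or 64247 or Rebound mouse 49041, 49827, 49834 or 49849 in turn (adjusted p 0.0777 to 0.122). It also ended with limma voom (0.236, and 0.224 with the mouse as a replicate block). Without the 3 Rebound libraries highest in T and NK markers it was not called either, though the difference was larger (-3.75, adjusted p = 0.121). Without Vehicle mice 57098 and 57682 it was -3.37 (adjusted p = 0.00569). The call for Rebound against Endpoint was lost with limma voom (adjusted p = 0.0652; 0.0535 with the replicate block) and without the 3 Rebound libraries highest in T and NK markers (0.0577), and that for Endpoint against Vehicle held under each alternative run (4.82e-13 to 0.000349).

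Hspa1b (chr17:34956436-34959238, minus strand), the neighbouring gene with nearly the same coding sequence, stood at 0.837, 2.68, 0.218, 0.476 and 1.99 CPM in TAM Vehicle, above 0 in all 5. It was above 0 in 2 of 6 Endpoint libraries, at 0.128 and 0.569 CPM, and in 2 of 5 Rebound libraries, at 0.110 and 0.134. With Hspa1a and Hspa1b summed, the pair was lower at Endpoint than in Vehicle (-6.16 on the log2 scale, adjusted p = 0.000251).

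In the TC sort Hspa1a stood at 9.58, 2.59, 0.495, 0.959 and 26.5 CPM in Vehicle (same order of mice), 0.353, 0, 2.29, 0, 1.02 and 1.86 at Endpoint (mice 49823, 49825, 49830, 49831, 49843 and 49845) and 1.17, 1.07, 0.873, 0 and 0.110 in Rebound (mice 49041, 49059, 49692, 49827 and 49849). The 3 Vehicle mice high in TAM were also the 3 highest here, and mice 57098 and 57682 lay within the Endpoint and Rebound range. Neither Endpoint (log2 difference -3.06 ± 1.26 (SE), adjusted p = 0.0769) nor Rebound (log2 difference -3.61 ± 1.36 (SE), adjusted p = 0.226) passed the test against Vehicle, though DESeq2 called the first (adjusted p = 0.035). Hspa1b was again low in mice 57098 and 57682, at 4.50, 4.77, 0.206, 0.667 and 5.09 CPM in Vehicle, at most 1.06 at Endpoint and at most 0.545 in Rebound, and its Endpoint difference of -3.21 ± 1.20 had an adjusted p of 0.0538, which passed with DESeq2 (0.0252), limma voom (0.0229; 0.0222 with the replicate block), without TC Vehicle mouse 57098 (0.0474) and without Vehicle mice 57098 and 57682 in both sorts (0.0469).

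The constitutive Hsp70 fell in TAM at Endpoint and rose again in Rebound. Hspa8 (chr9:40800984-40810087, plus strand) stood at 722, 835, 699, 544 and 1024 CPM in Vehicle, 146 at the lowest, 262 at the median and 376 at the highest of the 6 Endpoint libraries, and 522, 722, 343, 519 and 460.3 in Rebound. No Endpoint library reached the lowest Vehicle library, and Rebound overlapped both. Hspa8 was lower at Endpoint than in Vehicle (log2 difference -1.52 ± 0.24 (SE), adjusted p = 0.000141, and 5.71e-08 to 0.000721 over the alternatives). The rise from Endpoint to Rebound was 0.97 ± 0.24 (adjusted p = 0.0085). Without the 3 Rebound libraries highest in T and NK markers it was 0.76 (adjusted p = 0.201). Rebound against Vehicle did not pass (log2 difference -0.54 ± 0.25 (SE), adjusted p = 0.154). In TC, Hspa8 stood at 682 to 906 CPM in Vehicle, 399 to 872 at Endpoint and 484 to 726 in Rebound, and Endpoint against Vehicle had an adjusted p of 0.0886. TC Endpoint mouse 49845, at 872 CPM, lay above the other 5, and without it the difference was -0.68 (adjusted p = 0.0074). With the mouse as a replicate block in limma voom the adjusted p was 0.0484.

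Of the co-chaperones, Dnajb1 was lower in TAM at Endpoint. Dnajb1 (chr8:83608193-83612653, plus strand) stood at 88.0, 99.1, 63.0, 42.1 and 124 CPM in Vehicle, 37.3 at the lowest, 40.7 at the median and 47.1 at the highest of the Endpoint libraries, and 72.0, 64.8, 31.0, 46.0 and 43.6 in Rebound. The Endpoint libraries lay close together and Vehicle mouse 57682 fell among them. The difference passed (log2 difference -0.99 ± 0.24 (SE), adjusted p = 0.0037; 0.00017 to 0.0191 over the alternatives). Rebound against Vehicle gave -0.66 ± 0.25 (adjusted p = 0.0812), which passed without TAM Vehicle mouse 57682 (0.0194) and without mice 57098 and 57682 in both sorts (0.0038). In TC it stood at 46.3 to 103, 49.5 to 76.5 and 52.6 to 71.3 CPM in Vehicle, Endpoint and Rebound, and the groups overlapped.

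Hsph1 (chr5:149614287-149636376, minus strand) stood at 33.4, 47.6, 16.5, 14.2 and 45.3 CPM in TAM Vehicle, with mice 57098 and 57682 low, at 13.7 to 30.3 at Endpoint and at 28.9, 32.1, 14.2, 33.0 and 28.0 in Rebound. Endpoint against Vehicle did not pass (log2 difference -0.73 ± 0.31 (SE), adjusted p = 0.0796), and passed without Vehicle mice 57098 and 57682 (-1.15, adjusted p = 0.00284), without either of them alone (0.0321 and 0.025) and without Endpoint mouse 49843 (0.0332). In TC it stood at 206, 257, 86.2, 116 and 217 CPM in Vehicle and 90.7, 71.3, 41.6, 70.0, 117 and 165 at Endpoint, a difference of -0.84 ± 0.34 (adjusted p = 0.0756). That difference passed with limma voom (0.0425; 0.0361 with the replicate block) and without Endpoint mouse 49845 (0.0212), Vehicle mouse 57098 (0.0385) or both Vehicle mice 57098 and 57682 (0.0203). Rebound was 83.3 to 154 CPM.

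Hsp90aa1 (chr12:110690605-110702728, minus strand) gave no call between stages. In TAM it stood at 38.5 to 70.8 CPM in Vehicle, 23.0 to 70.6 at Endpoint and 37.1 to 56.4 in Rebound, and in TC at 121 to 191, 103 to 305 and 101 to 169.9. Its adjusted p was 0.665 or more in all 6 stage comparisons. The constitutive cytosolic Hsp90, Hsp90ab1, which is no member, was lower at Endpoint than in Vehicle in TAM (795 ± 296 against 1626 ± 227 CPM (SD, n = 6 and 5); -1.02 ± 0.23, adjusted p = 0.00205) and in TC (-0.82 ± 0.18, adjusted p = 0.00369; -0.54, 0.211 without the 5 libraries high in T and NK markers). Hsf1, the heat shock factor, stood at 22.7 to 50.1 CPM in TAM Vehicle and 23.3 to 32.6 at Endpoint. Its log2 difference was -0.42 ± 0.20 (SE, edgeR adjusted p = 0.115). It passed without Vehicle mice 57098 and 57682 (-0.64, edgeR adjusted p = 0.0136).

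**Figure D2:**
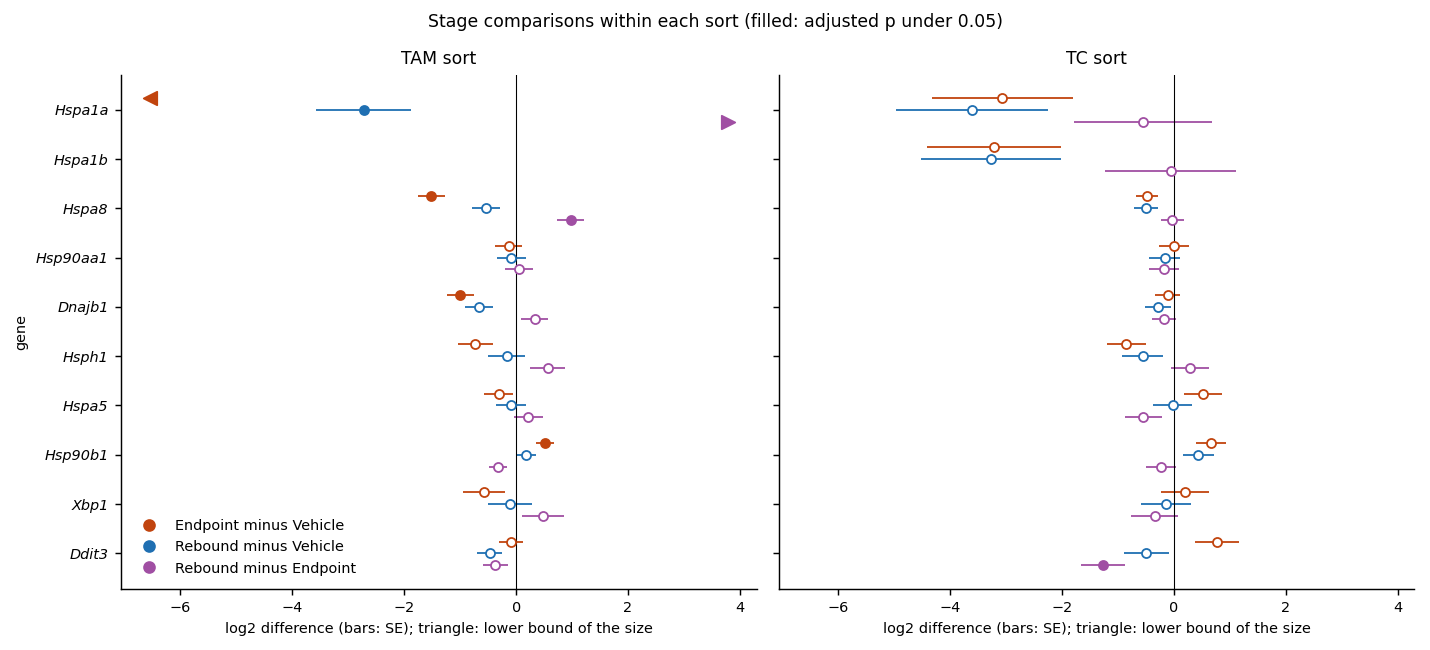
Log2 difference of each gene between stages, with its standard error, in the TAM sort (left) and the TC sort (right). Filled points have an edgeR adjusted p under 0.05. Where a group was at 0, triangles mark a lower bound of the size. It sets a floor of 6 counts over that group against the mean of the other group. In TAM, Hspa1a, Hspa8 and Dnajb1 lay below 0 and Hsp90b1 above 0 at Endpoint, and in TC only Ddit3 in Rebound against Endpoint was filled.

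Of the ER chaperones, Hspa5 gave no call between stages and Hsp90b1 rose in TAM at Endpoint. Hspa5 (chr2:34771970-34777547, plus strand) stood at 2081, 2194, 2422, 1809.6 and 2834 CPM in TAM Vehicle, 929.9 at the lowest, 1712 at the median and 2733 at the highest of the Endpoint libraries, and 1565, 3231, 2003, 1736 and 1829 in Rebound. Endpoint reached below the Vehicle range and not above it, with mice 49830, 49823 and 49831 low and mice 49843 and 49845 high. In TC it stood at 968, 494, 1428, 807 and 1562 CPM in Vehicle, 1008 at the lowest, 1145 at the median and 2678 at the highest at Endpoint, and 750.5, 1735, 857, 775 and 953 in Rebound. No stage comparison passed in either sort, and the smallest adjusted p was 0.245 (TC Rebound against Endpoint).

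Hsp90b1 (chr10:86690209-86705509, minus strand) is the Hsp90 of the ER. It stood at 828, 1005, 1352, 1209.6 and 1018 CPM in Vehicle, 1291, 1685, 1189, 1489, 1752 and 1768 at Endpoint and 1069, 1064, 1314, 1223 and 1285 in Rebound. Endpoint mice 49825, 49831, 49843 and 49845 were above the highest Vehicle library, and the other 2 lay within the Vehicle range. The difference was 0.51 ± 0.16 on the log2 scale (adjusted p = 0.0205) and was not called by limma voom (0.40, adjusted p = 0.186; 0.178 with the replicate block). In TC it stood at 466, 393, 869, 772 and 865 CPM in Vehicle, 805, 915, 760.4, 788, 1132 and 1551 at Endpoint and 909, 1179.7, 816, 532 and 1026 in Rebound. Endpoint against Vehicle gave 0.67 ± 0.27 (adjusted p = 0.0703), which DESeq2 (0.0357) and limma voom (0.0122; 0.011 with the replicate block) called.

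Of the members that are transcription factors of the ER response, neither Xbp1 nor Ddit3 was called between stages in TAM. Xbp1 (chr11:5520659-5525893, plus strand) stood at 252, 256, 34.7, 91.5 and 229.8 CPM in TAM Vehicle, with the low values in mice 57098 and 57682, at 81.0 to 143 at Endpoint and at 161, 242, 125, 96.6 and 162 in Rebound. The same mice were lowest in TC Vehicle, which stood at 133, 74.3, 37.6, 27.0 and 183 CPM. TAM Endpoint against Vehicle gave -0.58 ± 0.37 (adjusted p = 0.249). It passed without mouse 57098 (-0.85, adjusted p = 0.0193) and without both mice (-1.09, 0.00127). TC Endpoint and Rebound stood at 60.7 to 175 and 58.2 to 128 CPM. The low Xbp1 in mice 57098 and 57682 went with low Hspa1a, Dnajb1, Hsph1 and Rn45s in the same libraries; the part of Rn45s in these levels was not tested beyond the values without these mice.

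Ddit3 (chr10:127290774-127296288, plus strand) stood at 19.3, 16.6, 18.1, 20.5 and 18.8 CPM in TAM Vehicle, a narrow range, at 12.3 to 21.6 at Endpoint and at 20.0, 15.8, 10.961, 9.53 and 9.52 in Rebound, with no call. In TC it stood at 24.6, 36.7, 15.8, 16.004 and 32.9 CPM in Vehicle, 39.0, 48.0, 66.9, 48.6, 21.9 and 19.6 at Endpoint (mice 49823, 49825, 49830, 49831, 49843 and 49845) and 21.5, 10.6, 14.1, 30.9 and 10.6 in Rebound (mice 49041, 49059, 49692, 49827 and 49849). The first 4 Endpoint libraries were above every Vehicle library, the last 2 lay within the Vehicle range, and mouse 49827 was the highest in Rebound. Those 5 libraries are the ones high in T and NK markers, and the part of such cells in Ddit3 was not tested beyond the values without these libraries. Ddit3 was lower in Rebound than at Endpoint (log2 difference -1.27 ± 0.40 (SE), adjusted p = 0.0284), and without the 5 libraries the difference was -0.63 (adjusted p = 0.363). Leaving out Endpoint mouse 49825, 49830 or 49831 or Rebound mouse 49059, 49692 or 49849 also ended the call (adjusted p 0.0507 to 0.0781). Endpoint against Vehicle gave 0.78 ± 0.39 (adjusted p = 0.147, with 0.0244 by limma voom and 0.0228 with the replicate block). Without those 5 libraries this difference was -0.20, with an adjusted p of 0.826.

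**Figure D3:**
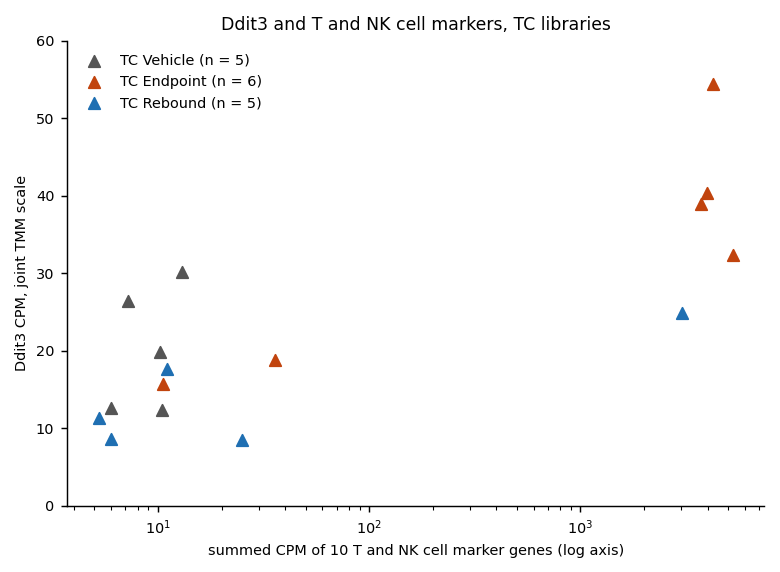
Ddit3 level (CPM, scale shared by both sorts) against the summed CPM of 10 T and NK cell marker genes (log axis) in the 16 TC libraries, coloured by stage. The 4 Endpoint libraries with a marker sum of 3714 CPM or more have 32.3 to 54.4 CPM of Ddit3, and the other 2 have 15.6 and 18.8.

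The sorts were compared at each stage in a fit of all 32 libraries, with CPM on a scale shared by both. This fit held no term for the mouse, so both libraries of a mouse were treated as independent. In Vehicle tumours 5 members were higher in TAM (25.6% of all genes tested were) and 2 in TC (29.2%). At Endpoint 2 were higher in TAM (18.7%) and 5 in TC (32.4%), and in Rebound 3 were higher in TAM (20.4%) and 2 in TC (27.4%). The ER chaperones were the TAM side. Hspa5 stood at 2252 to 3484 CPM in TAM Vehicle and 405 to 1253 in TC Vehicle, with no overlap (log2 difference 1.75 ± 0.34 (SE), adjusted p = 6.84e-05), and was also higher in TAM at Endpoint (0.80 ± 0.30, adjusted p = 0.0275) and in Rebound (1.62 ± 0.34, 0.000227). The Endpoint call ended without any of 6 libraries in turn (TAM mice 49843 and 49845, TC mice 49823, 49825, 49830 and 49831; adjusted p 0.0506 to 0.0867) and without the 5 TC libraries high in T and NK markers (0.37, adjusted p = 0.496). B and plasma cells are known to be rich in ER chaperones; 8 of their markers summed to 48.8 to 114 CPM in TAM Vehicle and 18.7 to 61.1 in TC Vehicle, none was at 0 in either group, and their part in these levels was not tested.

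Hsp90b1 was higher in TAM at all 3 stages, by 1.33 ± 0.24 in Vehicle, 1.06 ± 0.21 at Endpoint and 1.00 ± 0.24 in Rebound, with adjusted p of 2.33e-05, 0.000159 and 0.000799. Xbp1 was higher in TAM in Vehicle (43.1 to 319.6 against 21.2 to 147 CPM; 1.55 ± 0.45, adjusted p = 0.00423) and in Rebound (1.53 ± 0.45, 0.00566; 1.06, 0.155 without the 3 Rebound TAM libraries highest in T and NK markers). At Endpoint its difference of 0.66 ± 0.40 had an adjusted p of 0.175, and 0.0163 with the mouse as a fixed replicate block.

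The cytosolic Hsp110 and inducible Hsp90 were the TC side at every stage. Hsph1 stood at 17.6 to 59.4 CPM in TAM Vehicle and 67.5 to 211 in TC Vehicle, and the differences were -1.87 ± 0.37, -1.87 ± 0.34 and -1.53 ± 0.36 (TAM minus TC) in Vehicle, Endpoint and Rebound, with adjusted p of 8.29e-05, 3.87e-05 and 0.000888. Hsp90aa1 stood at 47.0 to 87.0 and 97.4 to 156 CPM in Vehicle. Its differences were -1.03 ± 0.27, -1.28 ± 0.25 and -1.01 ± 0.27 (adjusted p = 0.002, 0.000109 and 0.00298). Without the 3 Rebound TAM libraries highest in T and NK markers the last was -0.95 (adjusted p = 0.0634).

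Hspa8 was higher in TAM in Vehicle (0.56 ± 0.24, adjusted p = 0.0496) and lower in TAM at Endpoint (-0.60 ± 0.22, 0.0233). The first call was lost with DESeq2 (0.107), with its size factors in edgeR (0.119), with no filter on low counts (0.0617), without any single Vehicle library but TAM mouse 57682 (0.0545 to 0.14) and without mice 57098 and 57682 together (0.0723). The second was lost with no filter (0.108), without Rn45s (0.0861) and without TAM Endpoint mouse 49823 or 49830 or TC Endpoint mouse 49843 or 49845 (0.059 to 0.109). Dnajb1 was higher in TAM in Vehicle (0.77 ± 0.24, 0.0087), and its values at Endpoint and Rebound did not pass. At Endpoint Hspa1a was at least 8.96-fold lower in TAM than in TC (adjusted p = 0.00238, with 0.0895 by limma voom and 0.056 with the replicate block). The bound was 6.31-fold without TC mouse 49830, and 2 of the 6 TC Endpoint libraries also held no read. Ddit3 was lower in TAM at Endpoint (-0.79 ± 0.30, 0.0316). This call was lost without Rn45s (0.0716), with no filter (0.0918) and without TAM mouse 49823, 49843 or 49845 or TC mouse 49825, 49830 or 49831 (0.0547 to 0.107). Without the 5 TC libraries high in T and NK markers the difference was 0.27 (adjusted p = 0.564).

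**Figure D4:**
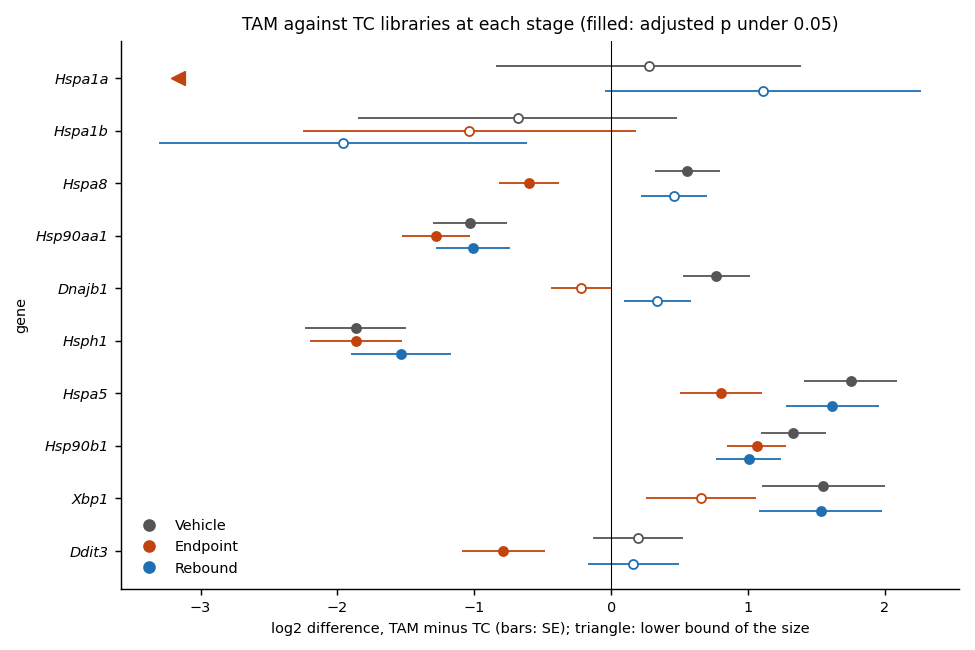
Log2 difference between TAM and TC libraries at each stage, with its standard error, from the fit of all 32 libraries. Positive values are higher in TAM, and filled points have an edgeR adjusted p under 0.05. The triangle is a lower bound of the size, from a floor of 6 counts over TAM Endpoint against the TC Endpoint mean. Hspa5 and Hsp90b1 lie right of 0 and Hsph1 and Hsp90aa1 left of 0 at all 3 stages.

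Whether the change between stages differed between the sorts was tested as an interaction. From Vehicle to Endpoint 3 members differed, where 25.7% of all genes did: Hspa8 fell more in TAM (difference -1.15 ± 0.32, adjusted p = 0.00975), as did Dnajb1 (-0.99 ± 0.33, 0.0271) and Hspa1a (adjusted p = 0.016). Limma voom with the mouse as a replicate block gave 5, adding Hspa5 (-1.03, adjusted p = 0.0333, and 0.0167 with the mouse as a fixed block) and Ddit3 (-1.08, 0.0312). In edgeR the Ddit3 difference was 0.13 without the 5 TC libraries high in T and NK markers (adjusted p = 0.892). The Hspa8 difference was lost without TAM Vehicle mouse 64247 (0.0523), and the count was then 1. That of Dnajb1 was lost without Rn45s (0.0546), with no filter (0.0734), without TAM Vehicle mouse 54359, 54363 or 64247 or TC Vehicle mouse 57098 or 57682 (0.0521 to 0.14) and without the 5 TC libraries (0.221). That of Hspa1a was lost with limma voom (0.0818) and with Hspa1b added (0.16). From Endpoint to Rebound 2 differed (20.6% of all genes): Hspa8 (1.06 ± 0.32, 0.0212) and Hspa1a (adjusted p = 0.0113), both lost without the 3 Rebound TAM libraries highest in T and NK markers (0.287 and 0.0867). Hspa8 was also lost without TAM Rebound mouse 49059 (0.055) and with no filter (0.0563), and Hspa1a with limma voom (0.104; 0.0634 with the replicate block) and with Hspa1b added (0.113). Without TC Rebound mouse 49827, Ddit3 passed (1.27, 0.0283). From Vehicle to Rebound no member differed by edgeR, DESeq2 or limma voom (0.517% of all genes did), and none had an unadjusted p under 0.05.

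Per kilobase of annotated exon, Hspa5 was the most abundant member in every group, from 194 ± 79.0 CPM per kb in TC Rebound to 664 ± 111 (SD, n = 5) in TAM Vehicle. In TAM Vehicle it was followed by Hsp90b1 (333 ± 64.1), Hspa8 (219.9 ± 50.7) and Xbp1 (65.7 ± 38.9). At TAM Endpoint Hspa5 (533 ± 211) and Hsp90b1 (469.9 ± 74.8) lay within each other's spread and Hspa8 was far below both (76.7 ± 26.4). In TC Vehicle the first 3, Hspa5 (198 ± 82.1), Hspa8 (150.1 ± 15.8) and Hsp90b1 (133 ± 43.4), overlapped. Hspa1a and Hspa1b were the lowest in every group. Hsph1 came before Dnajb1 and Ddit3 in TC Vehicle, where these lay within its spread, and after them in TAM. How reads shared with other genes were counted is not given in the sources used here, which bears on the levels of Hspa8, Hsp90aa1, Hspa1a and Hspa1b.

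The wider chaperone network, 28 cytosolic genes that include 6 members, gave more genes lower than higher in TAM at Endpoint. Of 27 tested, 9 fell and 3 rose against Vehicle, where 19.3 and 13.7% of all genes did (median -0.30, all genes -0.03). The members Hspa1a, Hspa8 and Dnajb1 are among the 9. This list and those below were chosen with earlier results of these data known. Their counts beside the shares of all genes are descriptions. Bag3, which hands Hsp70 clients to autophagy, stood at 26.4 to 54.6 CPM in Vehicle and 13.1 to 19.9 at Endpoint, with no overlap (-1.38 ± 0.18, adjusted p = 2.67e-05), and the Hsp40 Dnaja1 at 35.6 to 69.5 and 15.7 to 28.9 (-1.17 ± 0.21, 0.000355). From Endpoint to Rebound 5 rose and 1 fell, where 11.7 and 5.90% of all genes did. Without the 3 Rebound libraries highest in T and NK markers it was 1 and 0. In TC, Endpoint against Vehicle gave 2 higher and 6 lower of 28, where 14.0 and 14.8% of all genes were. Without the 5 libraries high in T and NK markers it gave 1 and 0. The small heat shock protein Hspb8 rose in TC at Endpoint (1.40 ± 0.50, adjusted p = 0.0441). Without the 5 its difference was 1.82 (adjusted p = 0.0875).

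ER chaperones and folding enzymes, 20 genes with Hspa5 and Hsp90b1 among them, split by sort. Of these, 17 were higher in TAM than TC in Vehicle (25.6% of all genes were), 12 at Endpoint (18.7%) and 15 in Rebound (20.4%). None was lower (29.2, 32.4 and 27.4% of all genes were). The medians were 1.57, 0.90 and 1.20, with -0.12, -0.19 and -0.16 over all genes. Sdf2l1, a BiP cofactor, stood at 126 to 526 CPM in TAM Vehicle and 13.6 to 103 in TC Vehicle. Against Vehicle, Endpoint gave 2 higher and 5 lower in TAM, where 13.7 and 19.3% of all genes were. In TC it gave 5 higher and 0 lower, where 14.0 and 14.8% of all genes were. Without the 5 libraries high in T and NK markers it gave 2 and 0. Dnajc3, an ER Hsp40, stood at 39.1 to 89.5 CPM in TC Vehicle and 124 to 292 at Endpoint (1.83 ± 0.28, 0.000671; 1.71, 0.015 without the 5). In TAM the oxidases moved apart: Ero1lb rose (1.21 ± 0.24, 0.000922) and Ero1l fell (-1.47 ± 0.46, 0.0221).

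In the PERK and ATF4 branch, of 19 genes tested 1 rose and 9 fell in TAM at Endpoint (13.7 and 19.3% of all genes did; median -0.68, all genes -0.03). Atf4 itself stood at 87.6 to 115 CPM in Vehicle and 58.7 to 71.3 at Endpoint (-0.61 ± 0.17, adjusted p = 0.00937), and Chac1, a glutathione-degrading target of this branch, at 0.764 to 3.56 and 0 to 0.314 (-3.71 ± 0.93, 0.00505). In TC, 4 of 19 fell at Endpoint (14.8% of all genes did), 3 without the 5 libraries high in T and NK markers, with Asns, the asparagine synthetase, at 154 to 289.9 CPM in Vehicle and 9.30 to 62.8 at Endpoint (-2.09 ± 0.39, 0.00175; -2.36, 0.043 without the 5). Ddit3 was not among those that fell.

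Immediate early genes, which digestion of tissue is known to induce, were read beside the heat shock genes. In TAM 9 of 20 fell and none rose at Endpoint, where 19.3 and 13.7% of all genes did. From Endpoint to Rebound 16 rose and none fell, where 11.7 and 5.90% of all genes did. Without the 3 Rebound libraries highest in T and NK markers it was 5 and 0. The immediate early genes summed to 1283 to 1635 CPM in TAM Vehicle, 556 to 1007 at Endpoint and 1062 to 6415 in Rebound. Endpoint was thus the lowest group for these genes as for Hspa1a and Hspa8. Within Vehicle the order was not shared: mice 57098 and 57682, low in Hspa1a, had the highest sums, 1635 and 1483 CPM. Fos stood at 1.97 to 24.2 CPM at Endpoint and 8.56 to 629.8 in Rebound (5.16 ± 1.00, adjusted p = 0.0028; 2.75, 0.15 without the 3 Rebound libraries) and fell in TC from Vehicle to Endpoint (-4.23 ± 0.70, 0.00101; -3.33, 0.0321 without the 5 libraries high in T and NK markers). Atf3 fell in TAM at Endpoint (-2.53 ± 0.42, 0.000318) and rose again in Rebound (2.19 ± 0.42, 0.00201; 2.08, 0.0207 without the 3). The part of digestion in the heat shock genes was not tested.

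The members varied together only in part within groups. After the 6 group means were subtracted from log2 CPM, the highest of the 45 pairwise Pearson correlations over the 32 libraries were Hspa8 with Hspa5 (0.77), Hspa1a with Xbp1 (0.73), Hspa8 with Hsp90aa1 (0.71), Hspa5 with Hsp90b1 (0.69) and Dnajb1 with Xbp1 (0.69). Ddit3 ran the other way from the ER chaperones, at -0.71 with Hsp90b1 and -0.52 with Hspa5. Over the 16 TC libraries those were -0.77 and -0.61, and over the 16 TAM libraries -0.47 and -0.36. These are descriptions: each pair shares its libraries, their depth and their cell mixture. The values include the 5 TC libraries high in T and NK markers and Vehicle mice 57098 and 57682. No correlation of members, or of the genes below, was computed without these libraries, and their part was not tested. Among 15668 genes, those most like Hspa5 were Pdia6 (0.88), Slc35b1 (0.85), Pdia4 (0.84), Creld2 (0.82) and Fdps (0.79). Those most like Hspa1a were Tsen34 (0.82), 2410004B18Rik (0.80), Acaa1a (0.80), Adck4 (0.77) and Pgp (0.77), and those most like Ddit3 were Supt4h1 (0.84), Sh2d3c (0.82), N4bp2l1 (0.82), Pecam1 (0.81) and Cnn2 (0.81).

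The 15 mice that gave both sorts allowed the level in one sort to be set beside that in the other, as deviations from the stage mean. For Hspa5 they went together: Pearson's r was 0.73 (permutation within stages, p = 0.00081, 0.0081 adjusted over the 10 members) and Spearman's rho 0.78 (p = 0.0013, adjusted 0.007), with the same sign in 13 of 15 mice, and r was 0.68 without the 2 mice farthest from the median. Over the 10 BLZ945 mice alone r was 0.84 (permutation p = 0.00103, adjusted 0.0103); 5 Vehicle mice are too few for a value. Rebound mouse 49059 had the highest Hspa5 of its group in both sorts, 3231 CPM in TAM and 1735 in TC, and so had Endpoint mouse 49845, 2733 and 2678. For Hspa8 r was 0.70 over 15 mice (permutation p = 0.0117, adjusted 0.0291; rho 0.64, p = 0.0208, adjusted 0.0346; r 0.71 without the 2 farthest mice) and 0.72 over the 10, where it did not pass (permutation p = 0.0301, adjusted 0.151). Dnajb1 had an r of 0.82 over 15 mice (permutation p = 0.00165, adjusted 0.00825; rho 0.81, p = 0.0021, adjusted 0.007; r 0.74 without the 2 farthest mice) and of 0.57 over the 10 (permutation p = 0.0793, adjusted 0.231). Hsp90aa1 passed by rank only, with r 0.61 (permutation p = 0.0573, adjusted 0.0819) and rho 0.76 (p = 0.00199, adjusted 0.007) over 15 mice, r 0.67 without the 2 farthest, and r 0.55 over the 10 (adjusted permutation p = 0.271). Hsph1 had an r of 0.71 over 15 mice (permutation p = 0.00872, adjusted 0.0291; rho 0.76, adjusted p = 0.00925; r 0.71 without the 2 farthest) and of 0.52 over the 10 (adjusted permutation p = 0.255). Xbp1 passed by rank only, with r 0.73 (permutation p = 0.0474, adjusted 0.0789) and rho 0.82 (adjusted p = 0.0168) over 15 mice, r 0.84 without the 2 farthest, and r 0.62 over the 10 (adjusted permutation p = 0.231). For both, Vehicle mice 57098 and 57682 were the lowest of their group in both sorts, and none of Dnajb1, Hsp90aa1, Hsph1 and Xbp1 passed over the 10 BLZ945 mice alone. For Hspa1a, at 0 in TAM in every Endpoint mouse, r over 15 mice was 0.62 (permutation p = 0.0414, adjusted 0.0789) and 0.39 without the 2 farthest, and it did not pass. Hspa1b (0.21 over 15 mice, adjusted permutation p = 0.531), Hsp90b1 (0.40, 0.216) and Ddit3 (0.38, 0.257) did not pass.

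**Figure D5:**
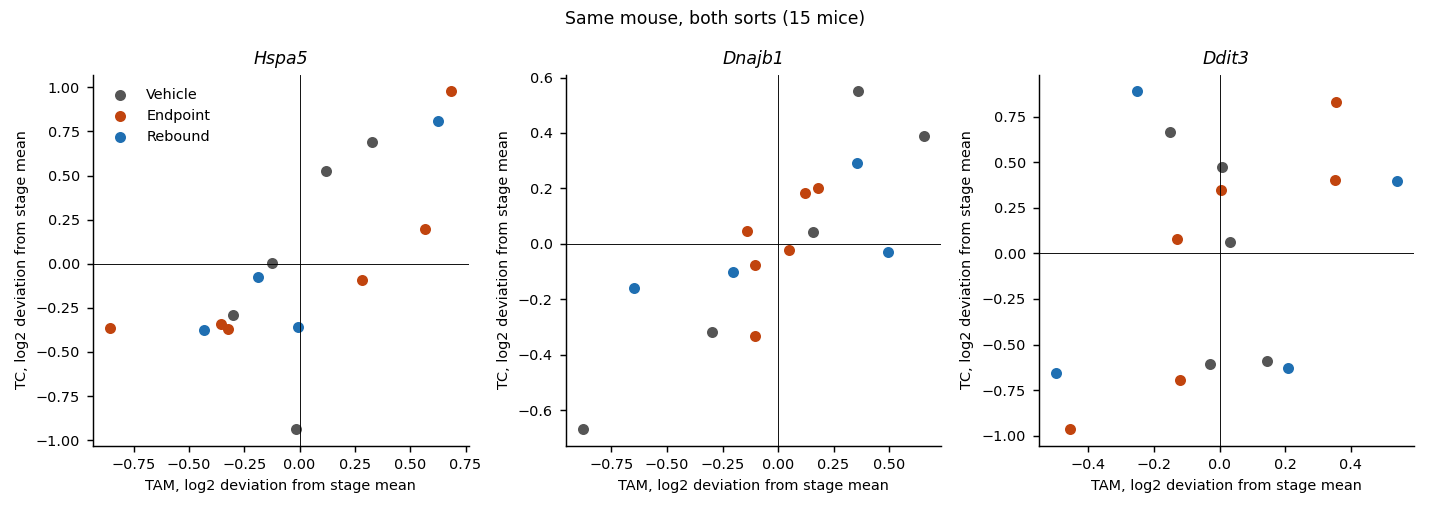
Log2 deviation from the stage mean in the TC library (vertical) against that in the TAM library (horizontal) of the same mouse, for Hspa5, Dnajb1 and Ddit3 in 15 mice coloured by stage. For Hspa5 13 of the 15 mice lie in the lower left or upper right field; the Dnajb1 points at both ends are Vehicle mice.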

How the data were processed

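RNA of sorted cells was made into SMART-Seq libraries and read as 50-base pairs, per the labels' protocols. The deposited table holds raw counts per gene; reads were aligned with STAR 2.3.0e to mm10, per the submitters' processing notes, and the counting program is not given in the sources used here. All counts were used as deposited, with no sample left out. In edgeR 4.0.16 (R 4.3.3), low genes were removed with filterByExpr, libraries scaled by TMM and quasi-likelihood models fitted, 1 per sort for stages (16 libraries each) and 1 of all 32 for TAM against TC and for interactions, with Benjamini-Hochberg adjustment over all genes tested and a threshold of 0.05. The scripts were tested on simulated data. Alternatives used DESeq2 1.42.0, limma 3.58.1 (voom), other scaling, no filter, no Rn45s, halved counts in the BLZ945 libraries and each library left out. The main fits held no mouse term. As alternatives, the mouse was a replicate block in limma voom and, for comparisons of sorts and interactions, a fixed block in edgeR. Mouse numbers in the labels pair the sorts by animal: 11 of 15 mice correlated best with their own other sort (r 0.011 to 0.338 over all 15). All members are named, with the 2 most changed called genes of each list per comparison considered for naming. Members and lists were chosen with earlier results of these data known, and some listed genes are not analysed here. Sequences are from RefSeq (GRCm38.p6), and genes sharing sequence from GENCODE M21.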

Additional observations from a re-analysis of the deposited data

Results flagged for a closer look

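In 10 of 59 groups of 5 or 6 libraries tested (16.9%), the highest or lowest library stood apart from the rest by Dixon's criterion. The criterion flags about 1 in 20 for independent, normally distributed values. These CPM values were not transformed and the groups share libraries, so that rate is no measure of an excess here. TC Endpoint mouse 49845 was the highest for 4 genes: Hspa8 at 872 CPM (the other 5 at 399 to 531), Hsp90aa1 at 305 (103 to 144), Hspa5 at 2678 (1008 to 1444) and Xbp1 at 175 (60.7 to 99.7). That library also had the highest sum of ependymal and choroid plexus markers, 246887 CPM. Rebound mouse 49059 was the highest for Hspa5 in both sorts, at 3231 CPM in TAM (others 1565 to 2003) and 1735 in TC (750.5 to 953), and for Hspa1a in TAM, at 2.59 (0.267 to 0.757). Hspa1b stood at 0.569 CPM in TAM Endpoint mouse 49831 (others 0 to 0.128). Hsph1 stood at 30.3 CPM in TAM Endpoint mouse 49843 (13.6 to 19.7) and, as the lowest, at 14.2 in TAM Rebound mouse 49827 (28.0 to 33.0).

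Changes between stages that differed between the sorts, by edgeR's interaction test, were those of Hspa8 (-1.15 from Vehicle to Endpoint and 1.06 from Endpoint to Rebound, TAM effect minus TC effect on the log2 scale), Dnajb1 (-0.99 from Vehicle to Endpoint) and Hspa1a (adjusted p = 0.016 and 0.0113, with no size given because TAM Endpoint is at 0).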

How the results depend on the processing

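For the 45 comparisons of single members called under at least 1 setting, 876 values under alternatives kept direction and side of the threshold. Another 79 lost and 31 gained the call, and 3 turned. All 3 were of Ddit3 without the 5 TC libraries high in T and NK markers. They were TC Endpoint against Vehicle (-0.20), TAM minus TC at Endpoint (0.27) and the interaction from Vehicle to Endpoint (0.13). None was called, with edgeR adjusted p of 0.826, 0.564 and 0.892, and TC Endpoint then held only mice 49843 and 49845. Of the 72 comparisons called under no setting, 33 changed sign under an alternative. The 3 sets of libraries left out together were chosen after seeing the data.

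Counts of members called moved as follows. TAM Endpoint against Vehicle (4) gave 7 without Vehicle mice 57098 and 57682, and 4 to 6 with each library left out. TAM Rebound against Vehicle (1) gave 3 without those mice, 2 with no filter, 0 without the 3 Rebound libraries highest in T and NK markers, and 0 to 2 with each library left out. TAM Rebound against Endpoint (2) gave 1 with limma voom, 1 with its replicate block and 0 without the 3 Rebound libraries. TC Endpoint against Vehicle (0) gave 3 with DESeq2, 4 with limma voom, 5 with its replicate block, 2 without Vehicle mice 57098 and 57682, and 0 to 2 with each library left out. TC Rebound against Endpoint (1) gave 0 without the 5 TC libraries and 0 to 1 with each left out. TAM against TC in Rebound (5) gave 3 without the 3 Rebound libraries. The Vehicle-to-Endpoint interaction (3) gave 5 with the replicate block in limma voom and 1 to 3 with each library left out. The Endpoint-to-Rebound interaction (2) gave 1 with no filter, with limma voom and with its replicate block, 0 without the 3 Rebound libraries, and 1 to 3 with each left out. The cause was not tested where fewer libraries do not account for it. The replicate block changed no other count by over 1.5 times.

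Hspa1a and Hspa1b rest on few reads. The mice are separate animals within a group, so p-values of the stage comparisons within a sort measure the spread between mice. In the comparisons of sorts and the interactions, the main fit treated both libraries of a mouse as independent, though 15 mice gave both sorts.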

Other observations

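The chaperonin CCT ring, which folds actin and tubulin, was lower in TC at Endpoint for 7 of its 8 genes and higher for none, where 14.8 and 14.0% of all genes were (median -0.78, all genes 0.03). Cct3 stood at 416 to 557 CPM in TC Vehicle, 128 to 272 at Endpoint and 238 to 438 in Rebound (-1.32 ± 0.22 for Endpoint against Vehicle, edgeR adjusted p = 0.00105; -0.92, 0.0798 without the 5 TC libraries high in T and NK markers). Without those libraries, which leaves only mice 49843 and 49845 at TC Endpoint, none of the 8 was called. In TAM only Cct7 was called (-0.74 ± 0.17, 0.00339). Of 9 mitochondrial chaperones 4 fell in TAM at Endpoint and none rose (19.3 and 13.7% of all genes did), with Grpel2, a nucleotide exchange factor for mitochondrial Hsp70, at 36.5 to 52.5 CPM in Vehicle and 20.7 to 31.1 at Endpoint (-0.62 ± 0.15, 0.0045). In TC 2 fell (1 without the 5 libraries), Grpel2 and Hspd1, the mitochondrial Hsp60 (-1.15 ± 0.23, 0.0026; -0.70, 0.185 without the 5).

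Of 14 genes of ER-associated degradation, which clears misfolded ER proteins, 5 fell and none rose in TAM at Endpoint (19.3 and 13.7% of all genes did). In TC 3 rose and none fell (14.0 and 14.8% of all genes), 2 and 0 without the 5 libraries. The interaction passed for 6 (25.7% of all genes), with the TAM effect the lower in each. Syvn1, the ubiquitin ligase Hrd1, stood at 51.4 to 112 CPM in TAM Vehicle and 34.2 to 43.1 at Endpoint (-0.97 ± 0.20, 0.00128), and Herpud1 at 55.5 to 102 CPM in TC Vehicle and 133 to 224 at Endpoint (1.18 ± 0.22, 0.00182; 1.23, 0.0314 without the 5). Of 8 sensors and their processing enzymes tested, 1 rose and 3 fell in TAM at Endpoint, where 13.7 and 19.3% of all genes did. Eif2ak3, which encodes PERK, rose with no overlap, from at most 17.4 CPM in Vehicle to 29.0 to 38.0 at Endpoint (1.46 ± 0.22, 9.25e-05). Those that fell were Creb3l2 (-0.97 ± 0.27, 0.00934), and Creb3 and Mbtps1, which were named after their values were seen.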
